A study of Mus musculus with 20 samples.

Results

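Mitochondrial fatty acid oxidation and ketogenesis were followed through 31 listed genes, which carry long-chain fatty acids into the mitochondrion, activate them, shorten them, pass on their electrons, turn the acetyl-CoA into ketone bodies or control these steps. Of these, 29 were found on the array as probe sets with that gene symbol alone, among 19938 genes named in this way, and all 29 were bright enough to be tested, among 14190 tested genes. Acsl1 and Ucp2 were not analysed here. Hadhb had 2 probe sets, of which the brighter was used, and each other member had 1.

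Liver takes up fatty acids and burns them in mitochondria when carbohydrate is scarce or dietary fat is plentiful. Carnitine palmitoyltransferases and a carnitine carrier bring long chains across the inner membrane, acyl-CoA dehydrogenases and the enzymes after them remove a short fragment in each round, and electron transfer flavoprotein hands the electrons to the respiratory chain. Liver turns much of the resulting acetyl-CoA into acetoacetate and 3-hydroxybutyrate, which it exports as fuel, and the nuclear receptor PPARA raises the transcription of many of these genes in fasting.

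Transcripts were measured with 1 whole-transcript microarray per animal in livers of 20 male mice, 5 of each of 4 strains. The strains were NZO/Hl (NZO here), an inbred obese line from the German Diabetes Centre, C57/Bl6 (B6 here), C3H from the Jackson Laboratory and 129P2/OlaHsd (129P2 here). All mice were 6 weeks old and had been kept from weaning, at 21 days, on a high-fat diet that drew 45% of its energy from fat, 35% from carbohydrate and 20% from protein, so the strains share age, sex and diet and no group ate a control diet. The title of the series is about knocking down Nudt19 in liver cells, its design text speaks of finding candidate genes, and no sample label names a knockdown. The labels give no substrain for the C57/Bl6 mice, no feeding state at collection and no batch. Each strain is 1 inbred line, so a difference between strains cannot be assigned to any 1 gene variant. The numbers 1 to 5 given to the animals of a strain follow the series order and pair nothing across strains.

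Values are on the log2 scale, so that a difference of 1 is a 2-fold difference, and a difference was called when the limma fit over all 20 arrays gave an adjusted p under 0.05. The liver label was borne out by its markers: all 7 measured hepatocyte genes were above the 40th percentile of every array, their mean level was 13.4 to 13.6 in each animal, and 0 of 7 were called in any comparison. In bulk tissue, fewer cells of a type and less RNA per cell cannot be told apart. Markers of skeletal muscle averaged 7.0 to 8.33 in 18 animals, 9.31 in C3H animal 2 and 9.75 in B6 animal 5. Arrays differed in the spread of their values (interquartile range 2.17 to 2.50), and the narrowest arrays were C3H animal 3, 129P2 animal 2 and NZO animal 2. The range was 2.34 to 2.48 in B6, 2.17 to 2.395 in C3H, 2.20 to 2.50 in NZO and 2.19 to 2.37 in 129P2. Strain and spread therefore cannot be fully told apart, most of all in comparisons with B6.

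The 29 members differed little between the strains, and the exceptions were a pair of neighbouring genes. Acad10 and Acad12, acyl-CoA dehydrogenase family members, were higher in 129P2 than in each of the other 3 strains, and no other member was called in any of the 6 pairwise comparisons. Bdh1, the enzyme that interconverts acetoacetate and 3-hydroxybutyrate, passed the test over all strains only. Against B6, NZO had 0 of 29 members called beside 10.3% of all tested genes, and against C3H it had 0 of 29 beside 6.60%; at an unadjusted limma p under 0.05 there were 7 members in each, beside 25.1% of all genes against B6 and 16.1% against C3H. Between C3H and B6, 0 of 29 were called beside 8.05% of all genes, with 3 at an unadjusted p under 0.05 beside 24.8% of all genes. The comparisons of 129P2 each held 2 called members, both higher in 129P2. All genes were called at 8.90% against NZO (4.61% higher in 129P2), 6.19% against B6 (2.11% higher in 129P2) and 5.03% against C3H (2.78% higher in 129P2). The F-test over strains called 3 members, which is 10.3%, beside 17.0% of all genes. All 6 comparisons share strains with each other, so their counts are not independent.

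The differences themselves were small. The highest and lowest strain means of a member lay a median of 0.22 apart, and they lay less than 0.50 apart in 26 of 29 members, all but Acad10, Acad12 and Pdk4. Of the 174 differences (29 members in 6 comparisons), 158 had a 95% interval that stayed within 1.5-fold in either direction, and 25 of 29 members had all 6 intervals within it. The intervals of Acad10, Acad12, Acsm3 and Pdk4 reached further. NZO had the lowest mean of the 4 strains for 10 members and the highest for 1, Acaa2, whereas B6 had the highest mean for 12, C3H for 9 and 129P2 for 7. The median difference of the members was -0.06 for NZO minus B6, -0.08 for NZO minus C3H and -0.12 for NZO minus 129P2, where the medians of all tested genes were 0.01, -0.00 and 0.01. These medians moved when 1 animal was left out: the first to -0.01 without NZO animal 2, the second to -0.16 without C3H animal 3 or -0.03 without C3H animal 2, and the third to -0.05 without 129P2 animal 3. The NZO differences were below 0 for 19 of 29 members against B6, 22 against C3H and 21 against 129P2.

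**Figure D1:**
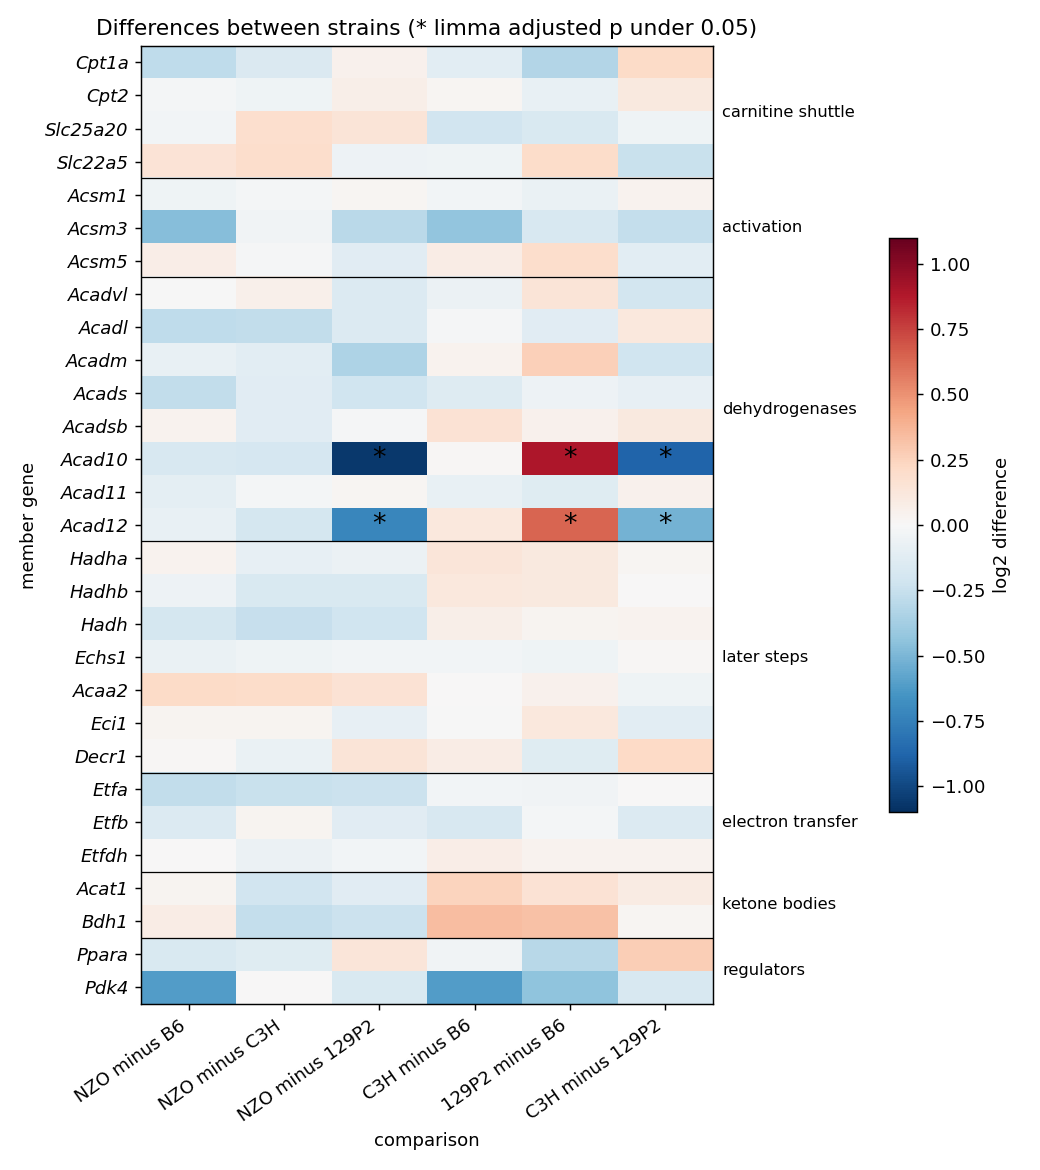
Log2 difference between strain means for the 29 members (rows, grouped by role) in the 6 comparisons (columns); red is higher and blue lower in the first-named strain, and a star marks a limma adjusted p under 0.05. The 6 stars are those of Acad10 and Acad12 in the comparisons with 129P2, and most other cells are pale.

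Acad10 and Acad12 encode acyl-CoA dehydrogenase family proteins, members of the group of flavoenzymes that carry out the first step of each round of oxidation. In the RefSeq order of the tested genes they stand next to each other, with 0 tested genes between them. Their promoter windows, 250 bases before to 50 after the start, are shown because the pair moved together and the windows resemble each other. Both lie on the minus strand of build GRCm38.p6, at chr5:121660461-121660760 for Acad10 and chr5:121618889-121619188 for Acad12, and are written from 5′ to 3′ with RefSeq sequence. Capitals mark the 2 longest runs of bases that are identical in both, which are equal in length.
Acad10: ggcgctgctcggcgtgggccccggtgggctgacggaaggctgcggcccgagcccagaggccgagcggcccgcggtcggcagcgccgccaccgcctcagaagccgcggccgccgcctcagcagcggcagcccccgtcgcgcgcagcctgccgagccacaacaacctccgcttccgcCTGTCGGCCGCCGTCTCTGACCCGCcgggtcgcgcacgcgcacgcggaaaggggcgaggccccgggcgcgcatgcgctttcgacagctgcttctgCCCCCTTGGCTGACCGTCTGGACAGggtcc
Acad12: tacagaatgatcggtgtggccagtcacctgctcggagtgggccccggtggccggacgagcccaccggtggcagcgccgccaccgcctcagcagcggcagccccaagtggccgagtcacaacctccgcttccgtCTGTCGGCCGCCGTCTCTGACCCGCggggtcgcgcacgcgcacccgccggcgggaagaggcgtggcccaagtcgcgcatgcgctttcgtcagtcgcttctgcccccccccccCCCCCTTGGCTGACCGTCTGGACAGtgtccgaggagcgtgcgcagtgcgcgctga
Each capital run is 25 bases long and occurs in 2 of the 32851 promoter windows of the table, these 2. The upstream run ends 50 bases before the start used for the Acad10 window and 92 bases before that used for Acad12. The start used for Acad10 lies inside the annotated span of that gene, and so does its upstream run. For Acad12 the start used is the 5′ end of the annotated gene, so the distances are not counted from like points. The other run begins 20 bases after the start used for Acad10 and spans the start of Acad12. Aligned from end to end, 215 of 345 columns were identical (62.3%, or 84.3% of the columns without a gap). These are the reference sequences of the build, and the strains' own sequences were not used here.

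In Acad10 the 129P2 animals had log2 values of 8.84, 8.80, 8.95, 9.01 and 9.16. NZO had 8.04, 7.67, 7.80, 8.01 and 7.92, B6 had 7.99, 8.07, 7.96, 8.28 and 7.99, and C3H had 8.27, 8.16, 7.76, 7.91 and 8.26. Every 129P2 animal lay above every animal of the other 3 strains, which overlapped among themselves. Values without overlap occurred in 7.95% of all tested genes between NZO and 129P2, 7.41% between 129P2 and B6 and 5.40% between C3H and 129P2. The mean of 129P2 was 2.09-fold that of NZO (NZO minus 129P2 -1.07, SE 0.10, limma adjusted p = 1.37e-07). It was 1.86-fold that of B6 (129P2 minus B6 0.89, SE 0.10, limma adjusted p = 2.55e-06) and 1.84-fold that of C3H (C3H minus 129P2 -0.88, SE 0.10, limma adjusted p = 3.13e-06). NZO, B6 and C3H were not called apart, with differences of -0.17 (NZO minus B6), -0.19 (NZO minus C3H) and 0.01 (C3H minus B6) and 95% intervals that reached from -0.40 to 0.22.

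Acad12 followed the same order at smaller differences. The 129P2 animals had 7.81, 7.69, 7.88, 7.71 and 7.95, against 7.21, 6.71, 7.17, 7.23 and 7.13 in NZO and 7.24, 7.09, 7.26, 7.28 and 6.98 in B6, with no overlap. C3H spread widest, with 7.50, 7.03, 6.88, 7.23 and 7.77, and its animal 5 lay within the 129P2 range. The mean of 129P2 was 1.64-fold that of NZO (NZO minus 129P2 -0.72, SE 0.13, limma adjusted p = 0.000621), 1.55-fold that of B6 (0.64, SE 0.13, adjusted p = 0.0025) and 1.44-fold that of C3H (C3H minus 129P2 -0.52, SE 0.13, adjusted p = 0.0156). The last call was lost without C3H animal 3, the lowest of its strain, at a difference of -0.42 (limma adjusted p = 0.0556). NZO animal 2, at 6.71, lay close to the 40th percentile of its array. Genes past all 3 comparisons of 129P2 made up 1.14% of all tested genes, and those higher in 129P2 0.514%; no member was set apart in this way in NZO (2.19% of all genes), B6 (1.44%) or C3H (0.951%).

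The genes around the pair were read to see how far the difference extends. This neighbour rule, of the 6 tested genes on either side in the RefSeq order, was set after the pair's values were known. Of the 12 neighbours, 9 were not called in any comparison with 129P2. Brap, a ubiquitin ligase of growth factor signalling, was the tested gene next to Acad10. It had 10.05, 10.37, 10.18, 10.10 and 10.34 in 129P2 and 9.67, 9.32, 9.58, 9.71 and 9.45 in NZO, with no overlap. It was higher in 129P2 than in NZO (NZO minus 129P2 -0.67, SE 0.10, limma adjusted p = 0.000136) and than in C3H (-0.48, SE 0.10, adjusted p = 0.00533), but 129P2 minus B6 was 0.25 (SE 0.10, adjusted p = 0.189). Brap was also lower in NZO than in B6 (NZO minus B6 -0.42, SE 0.10, limma adjusted p = 0.0113). Aldh2, the mitochondrial aldehyde dehydrogenase and the tested gene next to Acad12, was not called (NZO minus 129P2 -0.22, SE 0.10, limma adjusted p = 0.214). Trafd1, a regulator of innate immune signalling and the last of the neighbours on that side, was lower in 129P2 than in B6 (-0.59, SE 0.08, limma adjusted p = 2.47e-05) and than in NZO (NZO minus 129P2 0.42, adjusted p = 0.000928). Against C3H the call for Trafd1 (C3H minus 129P2 0.27, limma adjusted p = 0.0448) was lost under 16 of 32 alternatives. Among the comparisons of 129P2, Atxn2, which encodes an RNA-binding protein, was called against NZO only (NZO minus 129P2 -0.32, limma adjusted p = 0.0348, lost under 9 of 32 alternatives). Atxn2 was lower in NZO than in B6 too (NZO minus B6 -0.34, limma adjusted p = 0.0241), and 129P2 minus B6 was -0.02 (adjusted p = 0.946).

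Acad10 and Acad12 are related in sequence, and the files do not give the probe sequences, so signal shared between the 2 probe sets cannot be told apart from 2 separate transcripts. Base differences between strains under the probes were not tested. Both genes have 1 probe set here.

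**Figure D2:**
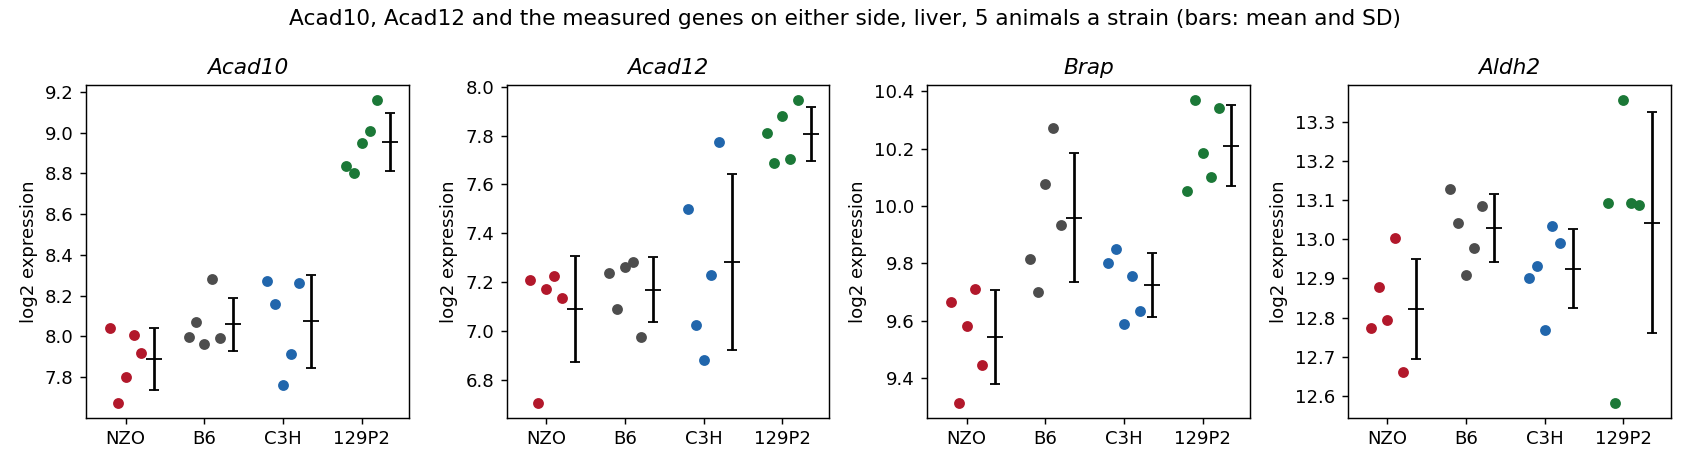
Log2 expression of Acad10, Acad12 and the tested genes on either side of them (Brap beside Acad10, Aldh2 beside Acad12) in each animal (points, 5 a strain), with the strain's mean and SD as bars. The 5 points of 129P2 for Acad10, from 8.80 to 9.16, lie above all other animals, of which the highest is 8.28.

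Of the promoter windows of the members, 27 windows of 26 members were in the table and 3 members had none. Motifs were searched on both strands as plain letters. GCGCATGCGC, the core recognised by nuclear respiratory factor 1, was chosen after the sequences had been seen, and it lay in both windows printed above and in those of Etfdh and Ppara, which is 4 of 27 windows beside 0.971% of all 32851. AGGTCA, a nuclear receptor half-site, lay in 5 of 27 (Acadm, Acsm1, Echs1, Acadvl and Cpt1a) beside 16.3% of all windows. The paired form AGGTCANAGGTCA lay in 0 of 27 beside 0.0396%. TATAAA lay in 0 of 27 beside 13.6%, and CCAAT in 10 of 27 beside 37.4%. A match is only a description of the letters in the reference sequence, and AGGTCA is part of the paired form.

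Among the 4 genes of the carnitine shuttle, 0 were called in any comparison. Cpt1a, the outer membrane transferase at which malonyl-CoA controls entry, had 11.65, 11.52, 11.60, 11.62 and 11.46 in NZO and 11.74, 11.88, 12.06, 11.91 and 11.65 in B6. Every B6 animal lay above every NZO animal, which held for no other member in that comparison and for 9.32% of all tested genes. The gap was very narrow, from 11.649 in NZO animal 1 to 11.651 in B6 animal 5. No member was without overlap between NZO and C3H (6.72% of all genes) or between C3H and B6 (8.81%). The difference did not pass the test (NZO minus B6 -0.28, SE 0.10, limma adjusted p = 0.0876), nor did 129P2 minus B6 (-0.33, SE 0.10, adjusted p = 0.0618), where animals overlapped. Both came closer to 0 with array spread as a covariate, at -0.17 (limma adjusted p = 0.319) and -0.20 (adjusted p = 0.278). NZO minus B6 was called under 2 of 32 alternatives (array weights, and the compared strains alone) and 129P2 minus B6 under 4 of 32, with a lowest limma adjusted p of 0.0425 and 0.0311. Cpt2, the inner membrane transferase, stayed between 10.29 and 10.40 in strain means, and Slc25a20, the carnitine carrier, between 10.13 and 10.34. Slc22a5, the plasma membrane carnitine transporter, had the largest of its differences between C3H and 129P2 (-0.25, SE 0.09, limma adjusted p = 0.156).

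The 3 measured genes of medium-chain fatty acid activation were Acsm1, Acsm3 and Acsm5, and 0 were called. Acsm3 had the widest spread of the members apart from Acad10, Acad12 and Pdk4. NZO animals had 9.73, 9.40, 9.33, 9.53 and 9.36, B6 animals 10.28, 9.99, 9.31, 10.06 and 10.07, C3H animals 9.57, 9.89, 9.03, 9.50 and 9.53, and 129P2 animals 9.74, 9.40, 10.09, 9.67 and 9.93. In B6, 4 of 5 animals stood above all NZO animals and animal 3 stood below them. NZO minus B6 was -0.47 (SE 0.16, limma adjusted p = 0.067), -0.63 without B6 animal 3 (adjusted p = 0.00662) and -0.31 with array spread as a covariate (adjusted p = 0.264). Acsm1 and Acsm5 had strain means of 11.13 to 11.20 and 10.70 to 10.90.

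The other acyl-CoA dehydrogenases divide the chain lengths among them, and 0 of these 6 were called. Acadm, the medium-chain enzyme, had 11.55, 11.25, 11.72, 11.49 and 11.39 in 129P2 and 11.19, 11.05, 11.30, 10.98 and 11.16 in NZO. The 2 groups overlapped through the lowest 129P2 animal, and B6 (strain mean 11.22) and C3H (11.26) lay between them. NZO minus 129P2 was -0.34 (SE 0.11, limma adjusted p = 0.057), and the difference was called under 10 alternatives, among them array spread as a covariate (-0.36, adjusted p = 0.00986). With that covariate 129P2 minus B6 was called too, at 0.41 (limma adjusted p = 0.0165), against 0.26 without it (adjusted p = 0.193). Acadl, the long-chain enzyme, had its lowest mean in NZO (10.48 ± 0.10, SD, n = 5) and its highest in B6 (10.76 ± 0.18), a difference that was not called (-0.28, limma adjusted p = 0.145). Acads, the short-chain enzyme, also had its extremes in these strains (9.43 ± 0.20 and 9.70 ± 0.21, SD, n = 5; -0.27, limma adjusted p = 0.137). Acadvl, the very-long-chain enzyme, was highest in 129P2 at 10.99 and lowest in C3H at 10.78, and 129P2 minus B6 was 0.14 (limma adjusted p = 0.489) or 0.30 with the covariate (adjusted p = 0.032). Acadsb, which acts on short branched chains, ran from 10.05 in B6 to 10.21 in C3H, and C3H minus B6 was 0.16 (limma adjusted p = 0.421) or 0.39 with the covariate (adjusted p = 0.0159). Acad11, another family member, ran from 11.25 to 11.39.

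The 7 genes of the later steps of the cycle had 0 calls. Hadha and Hadhb, the subunits of the trifunctional protein that handles long chains, had strain means of 11.85 to 11.98 and 10.49 to 10.66; the 2 probe sets of Hadhb had almost the same values, at means of 10.58 and 10.53 over all arrays. Hadh, the short-chain hydroxyacyl-CoA dehydrogenase, had 11.87, 11.80, 11.96, 11.93 and 11.96 in NZO and 12.08, 12.33, 11.95, 12.18 and 12.23 in C3H. NZO was the lower group with overlap, at -0.25 (SE 0.09, limma adjusted p = 0.0913), or -0.27 with array spread as a covariate (adjusted p = 0.0326). Acaa2, the thiolase that ends each round, was the 1 member with its highest mean in NZO: 12.61, 12.32, 12.47, 12.55 and 12.47. B6 had 12.24, 12.23, 12.25, 12.29 and 12.36 and C3H 12.29, 12.51, 12.14, 12.20 and 12.27, so that 4 of 5 NZO animals stood above all B6 animals. NZO minus B6 was 0.21 (SE 0.07, limma adjusted p = 0.0785) and NZO minus C3H 0.20 (SE 0.07, adjusted p = 0.131). With array spread as a covariate both were called, at 0.30 (limma adjusted p = 0.00203) and 0.18 (adjusted p = 0.0403). Echs1, the enoyl-CoA hydratase, ran from 10.68 to 10.75, and Eci1 and Decr1, which prepare unsaturated chains, from 9.88 to 10.00 and from 10.70 to 10.92.

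Electron transfer flavoprotein, encoded by Etfa and Etfb, and its dehydrogenase Etfdh had 0 calls. Etfa was lowest in NZO, with 11.08, 10.35, 10.64, 10.69 and 10.73 against 10.86, 10.82, 11.05, 11.07 and 11.06 in B6. NZO animal 1 was the highest of these 10 animals and the other 4 NZO animals lay below every B6 animal. The difference was -0.27 (SE 0.11, limma adjusted p = 0.135), -0.37 without NZO animal 1 (adjusted p = 0.0238) and -0.12 with array spread as a covariate (adjusted p = 0.493). With the covariate, NZO minus C3H went from -0.24 to -0.28 (limma adjusted p = 0.0451) and NZO minus 129P2 from -0.24 to -0.26 (adjusted p = 0.0482). Etfb ran from 10.87 to 11.05 and Etfdh from 11.78 to 11.85 in strain means.

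Ketone metabolism was represented by Acat1, the thiolase that condenses acetyl-CoA, and Bdh1. Bdh1 had 11.41, 11.33, 10.97, 11.42 and 11.45 in C3H, 11.27, 11.03, 11.56, 11.24 and 11.37 in 129P2, 11.16, 10.89, 10.93, 11.22 and 11.06 in NZO, and 10.93, 10.90, 11.25, 10.92 and 10.87 in B6. Most C3H and 129P2 animals stood above most B6 and NZO animals, and C3H animal 3 and B6 animal 3 lay away from their groups in opposite directions. The F-test over strains passed narrowly (limma adjusted p = 0.0471), and it was lost under 18 of 31 alternatives, among them 15 of the 20 that leave out 1 animal, over which its adjusted p went up to 0.0952. No pairwise comparison passed: C3H minus B6 was 0.34 (SE 0.11, limma adjusted p = 0.0518), 129P2 minus B6 0.32 (SE 0.11, adjusted p = 0.0878) and NZO minus C3H -0.26 (SE 0.11, adjusted p = 0.19). With array spread as a covariate these were called, at 0.52 (limma adjusted p = 0.000983), 0.49 (adjusted p = 0.0015) and -0.30 (adjusted p = 0.0208), as was NZO minus 129P2 (-0.26, adjusted p = 0.0326), and with equal array medians the F-test gave 0.173. Acat1 ran from 12.33 in B6 to 12.58 in C3H (C3H minus B6 0.24, SE 0.09, limma adjusted p = 0.118, or 0.38 with array spread as a covariate, adjusted p = 0.01).

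**Figure D3:**
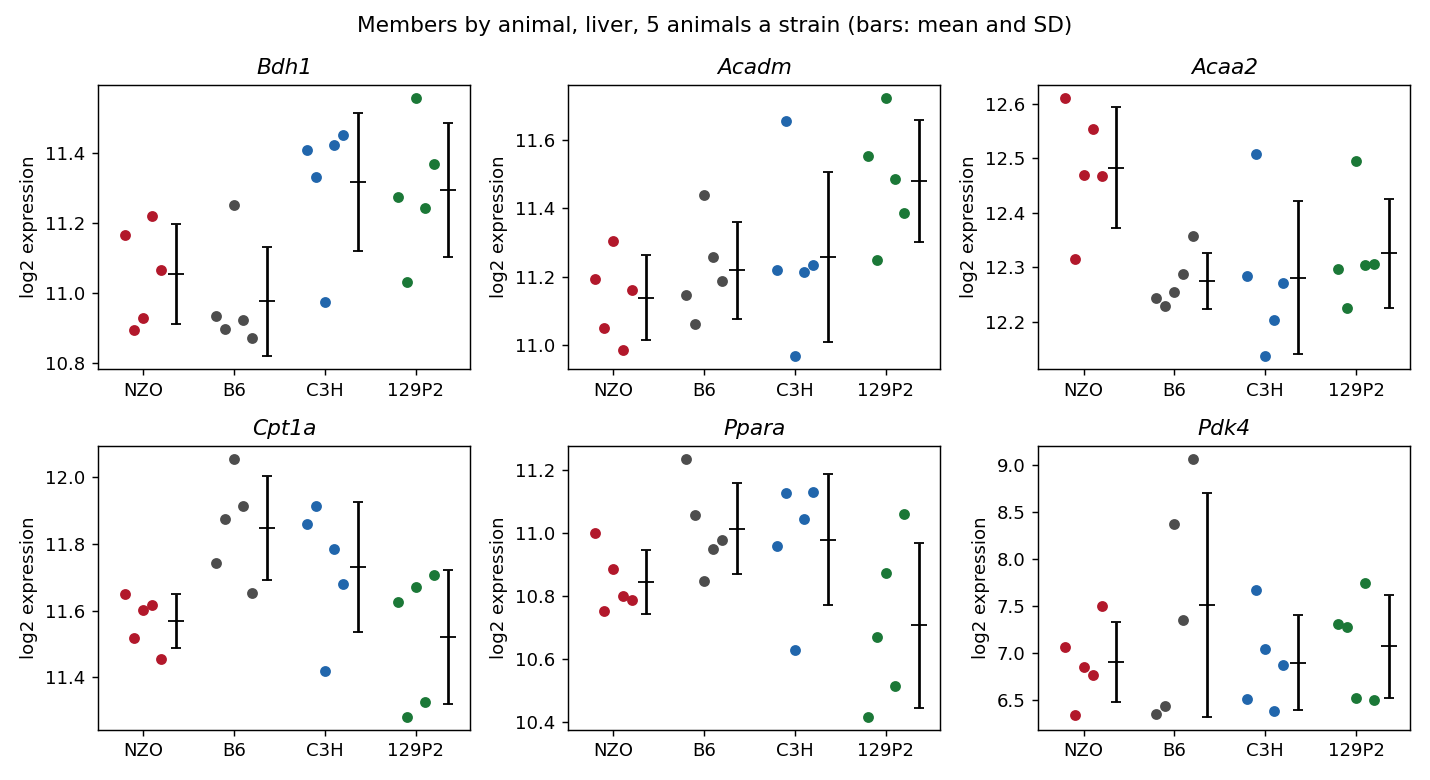
Log2 expression of 6 members in each animal (points, 5 a strain), with the strain's mean and SD as bars; each panel has its own axis. Bdh1 stands higher in most C3H and 129P2 animals and Acaa2 in most NZO animals. Cpt1a has its highest mean in B6, whereas Pdk4 varies most within B6, from 6.34 to 9.07.

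The regulators had 0 calls. Ppara, the nuclear receptor, had 11.24, 11.06, 10.85, 10.95 and 10.98 in B6 and 10.42, 10.67, 10.87, 10.51 and 11.06 in 129P2, which overlapped (129P2 minus B6 -0.31, SE 0.12, limma adjusted p = 0.134). Pdk4, the kinase that shuts off pyruvate dehydrogenase and rises in fasting, was the member that varied most between animals of a strain. B6 had 6.34, 6.43, 8.36, 7.35 and 9.07, C3H 6.51, 7.67, 7.04, 6.38 and 6.87, NZO 7.07, 6.33, 6.84, 6.76 and 7.50, and 129P2 7.31, 7.27, 6.51, 7.75 and 6.50. It was above the 40th percentile of the array on 13 of 20 arrays, so that its lower values have little order. The differences from B6 were -0.61 for NZO, -0.62 for C3H and -0.44 for 129P2 (SE 0.40, limma adjusted p = 0.339, 0.333 and 0.59). B6 animal 5, the highest, also had the highest skeletal muscle markers (9.75), and without it the differences from B6 were -0.22, -0.23 and -0.06; the part of muscle RNA in this was not tested. B6 animal 3, the next highest, had the highest values of its strain in Cyp4a14 (10.60, against 6.38 to 6.88 in the other 4 B6 animals), Acot2 (9.79) and Cpt1a (12.06). Over the members, this animal was the highest of its strain for 8 and the lowest for 8, the latter including Ppara (10.85) and Acsm3 (9.31).

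Pdk4 was set against each of the other 28 members across the 20 animals, as deviations from strain means. Pearson's r ran from -0.41 for Ppara (Spearman's rho -0.48) to 0.51 for Etfb (rho 0.53), with 15 above 0 and 13 below. By permutation within strains (100000 draws, two-sided), 0 of 28 relations passed an adjusted p of 0.05, and 2 passed unadjusted, those of Etfa (r = 0.49, rho = 0.53, permutation p = 0.0116 for r) and Etfb (permutation p = 0.0218 for r). The smallest adjusted permutation p was 0.305 for r and 0.406 for rho. Without the 2 animals farthest from the median Pdk4 deviation, B6 animals 5 and 1, r was 0.49 for Etfa, 0.42 for Etfb and -0.38 for Ppara. With array spread removed, 0 of 28 passed and the smallest adjusted permutation p was 0.19.

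Array spread moved with most members at once. Within strains, 21 of 29 members rose with the spread of the array and 0 fell, at an adjusted p under 0.05, beside 49.0% of all tested genes in either direction. C3H animal 3, of the narrowest array, was the lowest of its strain for 28 of 29 members, 129P2 animal 2 for 23 and NZO animal 2 for 21. C3H animal 2 was the highest of its strain for 22 members and 129P2 animal 3 for 20; C3H animal 2 also had skeletal muscle markers at 9.31, and 129P2 animal 3 at 7.10. With the spread as a covariate, 20 differences of 10 members were called in place of 6 of 2: the 6 of Acad10 and Acad12 and 14 of Acaa2, Acadm, Acadsb, Acadvl, Acat1, Bdh1, Etfa and Hadh. Among all 14190 tested genes, calls went from 1457 to 1378 for NZO minus B6 and from 936 to 1359 for NZO minus C3H. For NZO minus 129P2 they went from 1263 to 1928, and for C3H minus 129P2 from 714 to 1125. Those of C3H minus B6 fell from 1142 to 844 and those of 129P2 minus B6 rose from 879 to 940. The median of the members then went from -0.06 to 0.05 for NZO minus B6 and from -0.00 to 0.12 for C3H minus B6. It went from 0.03 to 0.14 for 129P2 minus B6 and from -0.12 to -0.14 for NZO minus 129P2. B6 arrays were mostly wider than those of the other strains. In the differences from B6, strain and spread therefore cannot be fully told apart. What sets the spread of an array was not tested.

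**Figure D4:**
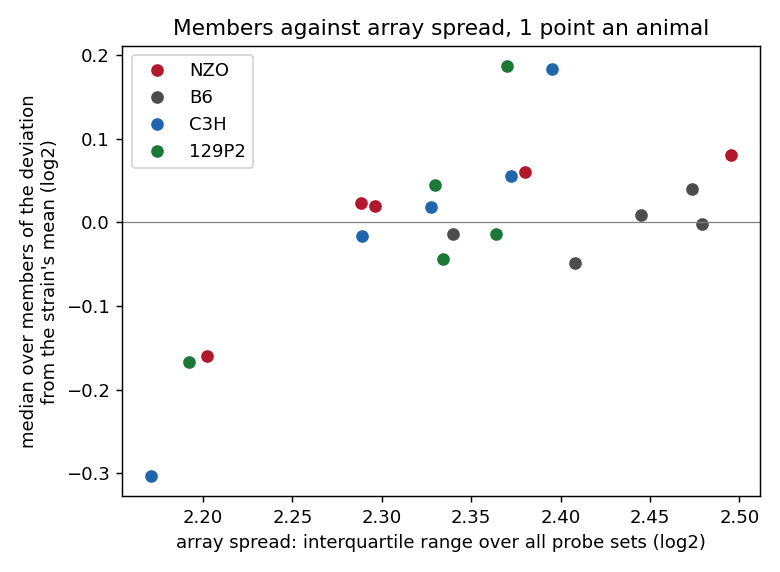
Median over the 29 members of an animal's deviation from its strain's mean (vertical axis, log2) against the interquartile range of its array over all probe sets (horizontal axis, log2), 1 point an animal. The 3 arrays of narrowest spread lie lowest, at -0.30 (C3H animal 3), -0.17 (129P2 animal 2) and -0.16 (NZO animal 2).

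Other genes around the pathway came from lists of fuel handling that hold 104 tested genes. For NZO minus B6, 4 were higher and 23 lower (26.0% in all), beside 3.63% and 6.64% of all tested genes. NZO minus C3H had 5 higher and 7 lower (11.5%), beside 3.51% and 3.09% of all genes, and NZO minus 129P2 had 1 higher and 16 lower (16.3%), beside 4.29% and 4.61%. C3H minus B6 had 0 higher and 10 lower (9.62%), beside 2.71% and 5.34%. 129P2 minus B6 had 6 higher and 7 lower (12.5%), beside 2.11% and 4.08%, and C3H minus 129P2 had 0 higher and 13 lower (12.5%), beside 2.25% and 2.78%. The lists were not tested as sets. Some markers of other liver cells were lower in NZO: 4 of 6 endothelial and 4 of 7 stellate cell and fibroblast genes against B6, 3 and 2 against C3H, and 3 and 3 against 129P2. The endothelial genes had a mean level of 8.24 to 8.72 in NZO animals, 8.70 to 9.22 in B6, 8.62 to 9.03 in C3H and 8.61 to 9.07 in 129P2. Their part in the NZO differences was not tested.

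In the list of the pyruvate dehydrogenase complex and its control, Pdk1, another kinase of pyruvate dehydrogenase, was lower in NZO. NZO animals had 8.30, 7.55, 7.66, 8.27 and 7.88, whereas the 15 other animals lay between 8.97 and 10.16, with no overlap. NZO minus B6 was -1.49, NZO minus C3H -1.62 and NZO minus 129P2 -1.94 (SE 0.17 each, limma adjusted p = 2.12e-06, 6.2e-07 and 4.14e-08), and all 3 calls held in all 32 alternatives. Of the 12 tested genes of that list, 2 were lower and 0 higher for NZO minus B6, 1 and 0 for NZO minus C3H and 3 and 0 for NZO minus 129P2. Over all tested genes, 6.64%, 3.09% and 4.61% were lower in NZO in these comparisons, in that order. The related member Pdk4 was not called in NZO (NZO minus C3H 0.00, SE 0.40, limma adjusted p = 0.998).

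In the list of ketone use beyond the members, with 7 tested genes, 2 were higher and 1 lower for NZO minus B6, 1 and 0 for NZO minus C3H, and 1 and 1 for NZO minus 129P2. Over all tested genes the shares were 3.63% and 6.64%, 3.51% and 3.09%, and 4.29% and 4.61%, in the same order. Slc16a6, a monocarboxylate transporter, had 9.44, 8.82, 8.79, 9.29 and 9.24 in NZO and 7.64 to 8.63 in the 15 other animals. The lowest NZO animal lay above the highest of the others. Slc16a6 was called for NZO minus B6 (0.93), NZO minus C3H (0.81) and NZO minus 129P2 (0.89), with an SE of 0.16 each and limma adjusted p = 0.000322, 0.00164 and 0.000539, and these calls held in all 32 alternatives. Bdh2, a cytosolic hydroxybutyrate dehydrogenase, was lower in NZO than in B6 (-0.54, SE 0.11, limma adjusted p = 0.00278), unlike Bdh1, for which NZO minus B6 was 0.08 (SE 0.11, adjusted p = 0.674). Bdh2 was also called lower in NZO than in 129P2, and lower in C3H than in B6.

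Among the 12 tested genes of other acyl-CoA dehydrogenases, isomerases and reductases, 3 were lower and 0 higher for NZO minus B6, and 3 and 0 for NZO minus 129P2. Lower in NZO in these comparisons were 6.64% and 4.61% of all tested genes. Pccb, a subunit of propionyl-CoA carboxylase, which handles the last fragment of odd chains, had 9.92, 9.52, 9.67, 9.81 and 9.74 in NZO, below all B6 animals (10.21 to 10.47) and all 129P2 animals (10.37 to 10.64). NZO minus B6 was -0.62 and NZO minus 129P2 -0.80 (SE 0.10 each, limma adjusted p = 0.000191 and 8.05e-06). Pccb was also called for NZO minus C3H (-0.35, SE 0.10, limma adjusted p = 0.036), where C3H animal 3 (9.76) lay within the NZO range and the call was lost under 10 of 32 alternatives. Ivd, the isovaleryl-CoA dehydrogenase of leucine breakdown, was lower than in B6 both in NZO (-0.48, SE 0.11, limma adjusted p = 0.00601) and in 129P2 (-0.51, SE 0.11, adjusted p = 0.00527).

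Malonyl-CoA, the inhibitor of Cpt1a, is made by the carboxylases Acaca and Acacb, both in the list of PPARA partners and control of CPT1, of which 6 of 15 tested genes were lower and 0 higher for NZO minus B6. In that comparison 6.64% of all tested genes were lower and 3.63% higher. Acaca was lower in NZO than in B6 (-0.96, SE 0.16, limma adjusted p = 0.000187) and than in C3H (-0.79, SE 0.16, adjusted p = 0.00174). Acacb was lowest in 129P2 and lower there than in B6 (-0.97, SE 0.15, limma adjusted p = 0.000193). For Acacb, NZO minus B6 was -0.61 (SE 0.15, limma adjusted p = 0.0107), a call that array spread as a covariate ends (adjusted p = 0.0629). Acacb was also called lower in C3H than in B6, and Acaca lower in 129P2 than in B6.

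Among the 16 tested genes of fatty acid uptake and activation, 1 was higher and 5 lower for NZO minus B6, beside 3.63% and 6.64% of all tested genes. Fabp1, the liver fatty acid binding protein, was lower in NZO than in B6 (-0.34, SE 0.08, limma adjusted p = 0.00946) and than in C3H (-0.43, SE 0.08, adjusted p = 0.00153). It was also called lower in NZO than in 129P2. Dbi, the acyl-CoA binding protein, was lower than in B6 in the other 3 strains, with differences of -0.46 for NZO, -0.38 for C3H and -0.41 for 129P2 (SE 0.09 each, limma adjusted p = 0.00127, 0.00894 and 0.00525). In the list of carnitine synthesis and transfer, with 6 tested genes, Crot, the peroxisomal carnitine octanoyltransferase, was lower in C3H than in NZO (NZO minus C3H 0.50, SE 0.10, limma adjusted p = 0.00182) and than in 129P2 (C3H minus 129P2 -0.49, SE 0.10, adjusted p = 0.00291). Crot was called lower in C3H than in B6 too.

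PPARA targets outside mitochondrial oxidation had their most calls between C3H and 129P2, where 8 of 17 tested genes were lower in C3H and 0 higher, while 2 of 29 members were called there, both lower in C3H. Over all tested genes, 2.78% were lower in C3H and 2.25% higher. Cyp4a14, a fatty acid omega-hydroxylase, was below the 40th percentile on all 5 C3H arrays (6.06 to 6.57), stood at 8.81 to 11.34 in 129P2, and ran from 6.38 to 10.60 in B6 and from 6.49 to 8.98 in NZO. Cyp4a31, of the same gene family, was lower in C3H than in 129P2 (C3H minus 129P2 -1.93, SE 0.40, limma adjusted p = 0.00404), as was Retsat, a retinol saturase (-1.08, SE 0.18, adjusted p = 0.000371). Reads or probes shared within the Cyp4a family cannot be told apart here. Vnn1, a pantetheinase, had 7.32, 7.61, 6.71, 6.64 and 6.50 in C3H, below the 15 other animals (8.19 to 9.89). Acaa1b, a peroxisomal thiolase, was lower in NZO, with differences of -0.89 for NZO minus B6 and -0.99 for NZO minus 129P2 (SE 0.17 each, limma adjusted p = 0.000829 and 0.000262). Among the 19 tested genes of the citrate cycle and mitochondrial content, 3 were lower and 0 higher for NZO minus B6, among them Sdha, a subunit of succinate dehydrogenase (-0.37, SE 0.09, limma adjusted p = 0.0062), and Vdac1, the outer membrane channel (-0.42, SE 0.09, adjusted p = 0.00227). Over all tested genes, 6.64% were lower and 3.63% higher for NZO minus B6.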

How the data were processed

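Liver RNA of 20 male mice (5 per strain) was hybridized to 1 array per animal. Per the labels' protocols, 150 ng of RNA with an integrity number above 8 was amplified. The authors deposited log2 expression values. The tools named, per the submitters' processing notes, are Affymetrix Expression Console and RMA (robust multi-array averaging), with no versions given in the sources used here. Replicate numbers are only names. The limma p-values rest on 1 estimate per gene of the spread between animals within strains, shared by all 4 strains and moderated across genes. The wide spread of Pdk4 in B6 (SD 1.19) therefore enters its SE in every comparison.

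Of 35556 probe sets, 21789 had 1 gene symbol in the platform annotation and were used, 1621 had several and 12146 were unnamed here. A gene with several probe sets took the one with the highest mean over all arrays. Genes were tested where at least 5 arrays were above their own 40th percentile. Differences come from limma 3.58.1 in R 4.3.3, with 1 mean per strain over all arrays, an intensity trend (16 residual and 6.38 prior degrees of freedom) and Benjamini-Hochberg adjustment over all tested genes, two-sided. Intervals are at 95% and not adjusted. The number of arrays limits the precision. Relations to Pdk4 were tested by permutation in Python 3.11.15. Every member could be named, and genes of the other lists where called. The members, lists, motifs and tests were chosen with earlier results of these data known. Gene order and promoters come from RefSeq GRCm38.p6, and the series states no build, so coordinates are given for the promoter windows alone.

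On simulated data with 14190 genes, 200 of them changed in NZO, NZO minus B6 recovered 82.1% of changes of 0.5 log2 units and 100% of those of 1 and 2, with 9 false calls. The simulated noise was independent between genes and arrays and held no shared effect of array spread. These figures therefore do not show how the fit does on arrays that differ in spread. Alternatives were a filter set at the 60th percentile or none, another quantile normalization or equal medians of the arrays, no trend, array weights, robust moderation, a fit of the compared strains alone, averaged probe sets, array spread as a covariate, leaving out the 3 arrays of narrowest spread or each animal in turn, and an adjusted p under 0.01.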

Additional observations from a re-analysis of the deposited data

Results flagged for a closer look

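Among the 116 groups of 5 animals (29 members in 4 strains), 7 held an animal whose gap to its nearest neighbour was over 0.71 of the range of its group. Chance marks about 1 in 20 groups, or 5.8 of these 116. Bdh1 had 2: B6 animal 3 was high at 11.2516, with the next animal at 10.93, and C3H animal 3 was low at 10.9740, with the next at 11.33. Etfdh also had 2, both low: C3H animal 3 at 11.3912, with the next at 11.90, and B6 animal 1 at 11.6778, with the next at 11.78. NZO animal 2 was low in Acad12 at 6.7068, with the next at 7.13, and in Acsm5 at 10.5387, with the next at 10.80. In Acadvl, 129P2 animal 3 was high at 11.2532, with the next at 10.98. C3H animal 3 and NZO animal 2 are on 2 of the 3 arrays of narrowest spread. Without NZO animal 2 or C3H animal 3, the Acad12 calls against NZO and B6 held.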

How the results depend on the processing

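Over 32 alternatives, no member difference that was called changed direction. The 3 calls of Acad10 held in all 32, with differences of -1.12 to -1.01 (NZO minus 129P2), 0.84 to 1.04 (129P2 minus B6) and -0.93 to -0.80 (C3H minus 129P2). Of Acad12, those against NZO and B6 held in all 32 (-0.75 to -0.62 and 0.59 to 0.80), and C3H minus 129P2 held in 30, its value being -0.42 without C3H animal 3; an adjusted p under 0.01 left 1 member called there and 1 set apart. Over all member differences and alternatives, 87 crossed into being called, 2 out of it (those of Acad12) and 5479 kept their side. Members called for NZO minus B6 rose from 0 to 4 with array weights and to 1 with another quantile normalization, with only the compared strains, with array spread as a covariate, and without the 3 narrowest arrays. Over all 14190 tested genes, calls there went from 1457 to 3165 with array weights. They were 1488, 1368, 1378 and 1366 in the other settings just named, in that order. NZO minus C3H went from 0 to 2 with another quantile normalization, 3 with array weights, 4 with the covariate and 3 without the 3 narrowest arrays. All called genes there went from 936 to 1130, 1430, 1359 and 991 in the same order of settings. NZO minus 129P2 went from 2 to 7 with array weights and 5 with the covariate, while all called genes went from 1263 to 2102 and 1928. C3H minus B6 went from 0 to 1 with the stricter filter, another quantile normalization, no trend or robust moderation, to 3 with array weights, 3 with the covariate and 2 without the 3 narrowest arrays. All called genes there went from 1142 to 954 of 9716 with the stricter filter. With the other settings they were 1125, 1130, 1120, 1889, 844 and 971, in the order just given. 129P2 minus B6 went from 2 to 4 with another quantile normalization, 6 with array weights, 5 with the covariate and 4 without the 3 narrowest arrays. All called genes there went from 879 to 932, 1290, 940 and 840 in the same order of settings. The F-test went from 3 to 10 with array weights and 9 with the covariate, while all called genes went from 2415 to 4175 and 2988. Leaving out 1 animal gave 0 to 2 (NZO minus B6), 0 to 2 (NZO minus C3H), 2 to 4 (NZO minus 129P2), 0 to 2 (C3H minus B6), 2 to 4 (129P2 minus B6), 1 to 2 (C3H minus 129P2), 2 to 5 (F-test) and 1 to 2 (set apart). Over all genes the pairwise counts then ran, in this order, from 983 to 2207, 740 to 1030, 1018 to 1363, 739 to 1477, 655 to 982 and 542 to 788. The F-test then called 1984 to 2831 genes. The cause was not tested. No paired analysis was possible because the labels carry no replicate numbers. Low signal limits Pdk4.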
